A study of Homo sapiens with 12 samples.

Results

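The genes described here are EPHA2 and EPHA4, which encode receptors of the Eph family of tyrosine kinases. They are 2 of the 14580 genes measured in A2058 cells, an established BRAF-mutant human melanoma line. Each gene had 1 probe set on the arrays, found by its gene symbol, so that no choice between probe sets was needed. The arrays formed 4 groups of 3. Cells of the DTE group received dabrafenib (100 nM), trametinib (10 nM) and entinostat (1 µM) together. The DT group received dabrafenib and trametinib at those doses, and the E group entinostat alone at the same dose. The DMSO group received the vehicle. All RNA was taken at 24 h, from a single cell line grown in DMEM with serum. Dabrafenib inhibits RAF kinases, trametinib inhibits MEK, and entinostat inhibits class I histone deacetylases. The titles call the 3 arrays of a group biological replicates, whereas the design text calls them technical. P-values here reflect array-to-array spread alone, and part or all of it may be technical.

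Eph receptors bind ephrins, ligands that are themselves anchored in the membrane of a neighbouring cell, so the pair signals mainly where cells touch, and it can do so into both cells. Ephrin-A ligands carry a lipid anchor and bind mostly EphA receptors, ephrin-B ligands span the membrane and bind mostly EphB receptors, and EPHA4 binds ligands of both classes. The family is known for repelling growth cones and sorting cells during development. EPHA2 is known as a receptor of epithelial cells that is often abundant in carcinoma and melanoma and whose transcription responds to RAS and ERK signalling. EPHA4 is known best as a guidance receptor of neurons and neural crest.

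The sequences before the transcription starts of both genes are shown because the 2 genes fell together under dabrafenib and trametinib. They are the 250 bases before each start in RefSeq (build GRCh38.p14), given 5′ to 3′ on the gene's own strand, which is the minus strand for all of them. EPHA2 lies on chromosome 1 and has 1 start in that table. EPHA4 lies on chromosome 2 and has 2 starts, and which of them A2058 cells use was not tested. Capitals mark matches, on either strand, to the motifs named after the sequences.
EPHA2, chr1:16156070-16156319: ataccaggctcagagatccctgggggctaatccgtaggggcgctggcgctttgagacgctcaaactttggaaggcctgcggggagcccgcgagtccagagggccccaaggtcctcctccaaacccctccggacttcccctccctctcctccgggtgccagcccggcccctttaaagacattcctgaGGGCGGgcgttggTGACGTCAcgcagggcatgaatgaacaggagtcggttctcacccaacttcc
EPHA4 upstream start, chr2:221574203-221574452: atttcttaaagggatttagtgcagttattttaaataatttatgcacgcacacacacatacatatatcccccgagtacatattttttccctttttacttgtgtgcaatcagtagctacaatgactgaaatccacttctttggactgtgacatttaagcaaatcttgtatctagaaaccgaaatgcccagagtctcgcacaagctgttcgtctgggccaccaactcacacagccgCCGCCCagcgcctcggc
EPHA4 downstream start, chr2:221572305-221572554: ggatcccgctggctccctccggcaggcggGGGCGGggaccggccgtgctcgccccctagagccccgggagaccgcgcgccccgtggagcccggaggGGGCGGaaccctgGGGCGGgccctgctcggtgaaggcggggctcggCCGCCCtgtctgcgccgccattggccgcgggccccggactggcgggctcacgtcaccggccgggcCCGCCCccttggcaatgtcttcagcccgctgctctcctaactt

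The motifs searched were the cyclic AMP response element TGACGTCA, the AP-1 site TGANTCA, the extended ETS site CCGGAA, the E-box CACGTG and the GC box GGGCGG. The EPHA2 window held 1 cyclic AMP response element, whose first base lies 51 bases before the start. That motif is present in 1.65% of the 35116 RefSeq windows of this length. The EPHA2 window also held 1 GC box, 64 bases before the start. The window of the upstream EPHA4 start held 1 GC box and that of the downstream start held 5, and GC boxes are present in 42.6% of windows. The AP-1 letters (6.57% of windows), the extended ETS site (14.5%) and the E-box (6.34%) were found in none of the 3 windows shown. The shorter ETS core GGAA was not searched for, and its letters can be read in the EPHA2 sequence. GC content was 63.2% for EPHA2, 43.2% for the upstream EPHA4 window and 78% for the downstream one, against a median of 58% over all windows. Of the motifs searched, the windows thus share the GC box alone, and a match describes letters, not binding.

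Median array levels over all genes lay between 4.61 and 4.69 in DTE, 4.402 and 4.603 in DT, 4.87 and 4.90 in E and 4.58 and 4.80 in DMSO on the log2 intensity scale. The median log2 change over all genes was -0.165 for DT minus DMSO and 0.0717 for E minus DMSO as deposited, and 0.0019 and -0.029 after quantile normalization. Values for the 2 genes are therefore also given on the normalized scale. As a check of MAPK inhibition, all 10 measured genes of an ERK output list fell in DT and in DTE against DMSO. Over all genes 24.1% were called lower in DT and 22.5% in DTE. DUSP6, a phosphatase of ERK, had log2 changes of -4.47 in DT and -4.84 in DTE (limma adjusted p = 9.66e-12 and 4.12e-12). Of 9 melanocyte markers, all 9 lay above the median of genes in DTE and in DT, and 8 did in E and in DMSO. Their summed intensity was 1843 to 1978 in DTE, 2829 to 3275 in DT, 1573 to 1735 in E and 1729 to 1795 in DMSO. In DT against DMSO 4 of the 9 rose: TYRP1 by 2.68, MLANA by 1.44, MITF by 1.36 and PMEL by 1.08 on the log2 scale. After quantile normalization 7 rose and after median centring 6, and 3.23% of all genes were called higher as deposited. In DTE minus DT 6 of the 9 were lower and 0 higher, where 5.09% of all genes were called lower. After quantile normalization 7 were lower there, and after median centring 8. Of 6 epithelial markers, KRT18 alone lay above the median of genes, in DTE, E and DMSO, and none did in DT. Their summed intensity was 91.9 to 105 in DTE, 75.6 to 88.3 in DT, 132 to 156 in E and 94.4 to 123 in DMSO. The summed intensity of the 2 endothelial markers measured, KDR and VWF, was 35.0 to 43.7 in DTE, 13.4 to 15.2 in DT, 71.7 to 87.8 in E and 34.0 to 41.4 in DMSO. The 2 neuronal markers, SYN1 and STMN2, summed to 35.4 to 44.0 in DTE, 16.1 to 20.4 in DT, 40.9 to 56.8 in E and 16.4 to 21.9 in DMSO. The 2 fibroblast markers, DCN and LUM, summed to 410 to 568 in DTE, 162 to 221 in DT, 254 to 303 in E and 131 to 165 in DMSO, almost all of it from LUM. The 2 blood markers, CD14 and LYZ, summed to 15.9 to 20.1 in DTE, 11.98 to 16.3 in DT, 19.7 to 25.7 in E and 19.6 to 21.98 in DMSO. VWF, STMN2, DCN and CD14 lay below the lower quartile of genes in every group. The part of these markers in the changes described here was not tested.

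EPHA2 was highest with entinostat alone and lowest with dabrafenib and trametinib. Its log2 intensities were 6.03, 5.96 and 5.94 in DTE, 5.07, 5.36 and 5.20 in DT, 8.01, 8.17 and 7.94 in E, and 7.41, 7.50 and 7.13 in DMSO. No array of any group overlapped with an array of another group, and the share of all genes with such a separation was not counted. The order of the group means was E (8.04 ± 0.12), DMSO (7.35 ± 0.19), DTE (5.97 ± 0.05) and DT (5.21 ± 0.14; SD, n = 3 each). Every step between neighbours in that order passed the test.

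EPHA4 was also lowest in DT, but entinostat alone did not place it above DMSO. Its log2 intensities were 5.26, 5.35 and 5.44 in DTE, 4.52, 4.32 and 4.47 in DT, 6.38, 6.18 and 5.82 in E, and 6.49, 6.69 and 6.21 in DMSO. The DTE arrays lay wholly above the DT arrays and wholly below those of the other groups, whereas the E and DMSO arrays overlapped. Of all genes, 21.1% had all DTE arrays above all DT arrays. For 28.6% they lay below all DMSO arrays and for 35.6% below all E arrays. The order of the group means was DMSO (6.46 ± 0.24), E (6.13 ± 0.28), DTE (5.35 ± 0.09) and DT (4.44 ± 0.10; SD, n = 3 each), and the step between E and DMSO did not pass the test. In DT the EPHA4 probe set stood at percentile 49.5 of all genes, so the low level still lay above the lower quartile of genes (2.91). Intensities of different probe sets are not comparable as amounts, so the 2 genes are compared only in their changes.

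**Figure D1:**
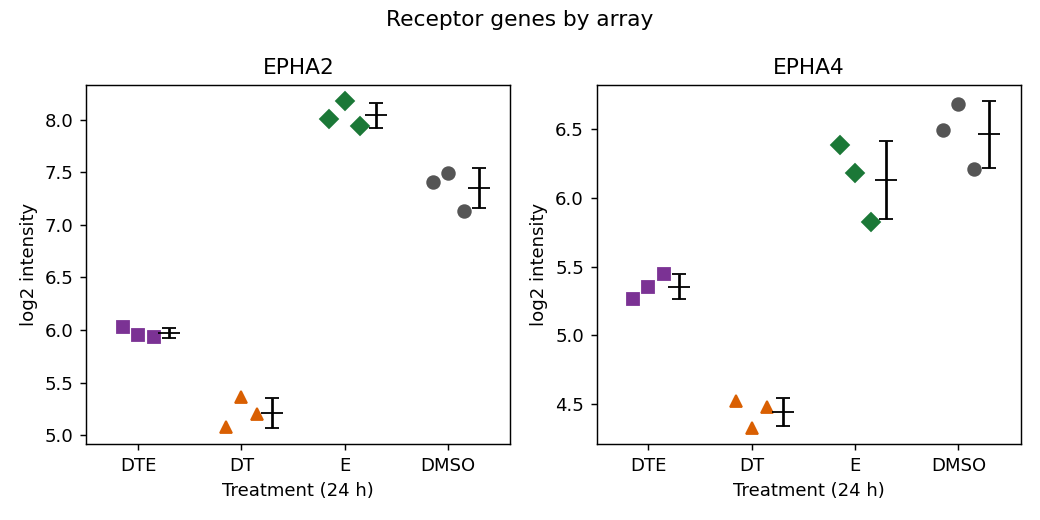
Log2 intensity of EPHA2 and EPHA4 on each of the 12 arrays (points, 3 per group), with the mean and SD of each group as a bar beside them; the vertical axes do not start at 0 and differ between the panels. EPHA2 separates all 4 groups, while the E and DMSO arrays of EPHA4 overlap.

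DT set against DMSO shows the receptor genes under MAPK inhibition without entinostat. Both fell to a similar degree. EPHA2 fell 4.39-fold (log2 change -2.13, SE 0.13, limma adjusted p = 7.79e-10) and EPHA4 fell 4.07-fold (-2.02, SE 0.15, adjusted p = 1.47e-08). Over all genes 24.1% were called lower in this comparison, and for 34.5% the 3 DT arrays all lay below the 3 DMSO arrays. By size, 49 of the 14580 genes had a more negative change than EPHA2 and 59 a more negative one than EPHA4. After quantile normalization the log2 changes were -1.79 (adjusted p = 5.86e-08) and -1.70 (adjusted p = 1.27e-06). In RNA from a whole culture, fewer cells with a transcript and less transcript per cell cannot be told apart.

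Under entinostat without the kinase inhibitors (E minus DMSO) the 2 genes parted. EPHA2 rose 1.62-fold (log2 change 0.69, SE 0.13, adjusted p = 0.000781), in a comparison in which 12.5% of genes were called higher and 22.3% had 3 E arrays above all 3 DMSO arrays. EPHA4 stood at -0.33 (SE 0.15, 95% interval -0.65 to -0.02, adjusted p = 0.155), and 3.54% of genes were called lower. After quantile normalization EPHA2 stood at 0.66 (adjusted p = 0.000932) and EPHA4 at -0.41 (adjusted p = 0.0628). Centring each array on its median made the EPHA4 difference a called fall, of -0.53 (adjusted p = 0.0135), with EPHA2 still higher, at 0.50 (adjusted p = 0.00303).

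With the 3 drugs together both genes remained below DMSO, by less than with dabrafenib and trametinib. EPHA2 fell 2.59-fold in DTE (log2 change -1.37, SE 0.13, adjusted p = 2.55e-07) and EPHA4 fell 2.16-fold (-1.11, SE 0.15, adjusted p = 1.9e-05), where 22.5% of genes were called lower and 28.6% had 3 DTE arrays below all 3 DMSO arrays. Quantile normalization gave -1.13 and -0.92. DT, E and DTE were all set against the same 3 DMSO arrays.

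Entinostat added to dabrafenib and trametinib (DTE minus DT) raised both genes. EPHA2 was 1.69-fold higher in DTE (log2 change 0.76, SE 0.13, adjusted p = 0.000258) and EPHA4 1.88-fold higher (0.91, SE 0.15, adjusted p = 0.000216). In this comparison 13.8% of genes were called higher and 21.1% had all DTE arrays above all DT arrays. The changes after quantile normalization were 0.66 and 0.78.

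Dabrafenib and trametinib added to entinostat (DTE minus E) lowered both genes, to unequal degrees. EPHA2 fell 4.19-fold (log2 change -2.07, SE 0.13, adjusted p = 2.13e-09), with 34 genes more negative. EPHA4 fell 1.71-fold (-0.78, SE 0.15, adjusted p = 0.00124), with 487 genes more negative. Of all genes, 22.4% were called lower and 35.6% had all DTE arrays below all E arrays. After quantile normalization EPHA4 stood at -0.51 (adjusted p = 0.0304) and EPHA2 at -1.79.

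**Figure D2:**
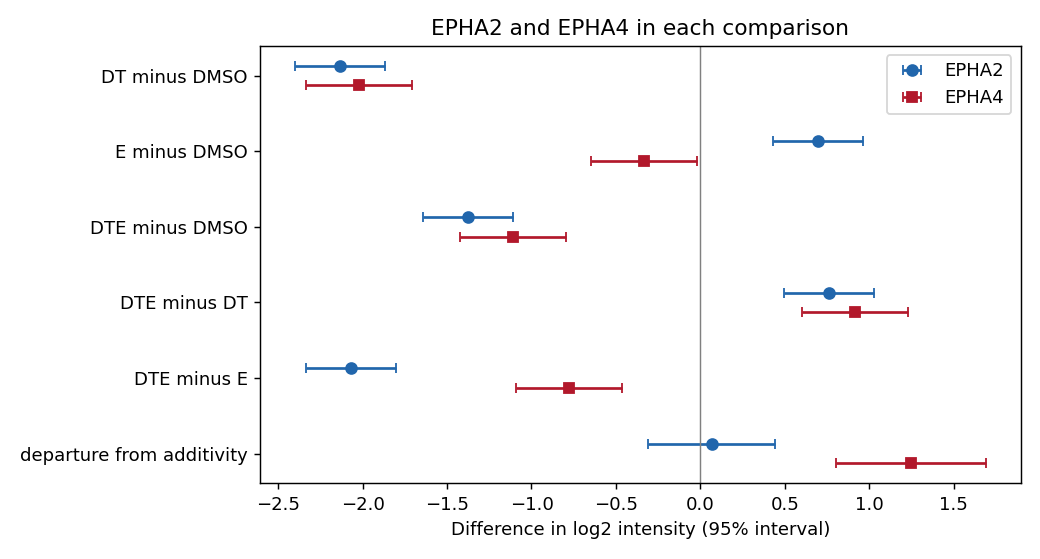
Difference in log2 intensity for EPHA2 (circles) and EPHA4 (squares) in each of the 6 comparisons, with 95% intervals from the limma fit; departure from additivity is DTE minus DT, less E minus DMSO. The 2 genes lie side by side for DT minus DMSO (-2.13 and -2.02) and apart for E minus DMSO, DTE minus E and the departure.

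The departure from additivity asked whether the effect of entinostat was the same with and without dabrafenib and trametinib. It is DTE minus DT, less E minus DMSO, on the log2 scale, and a value of 0 means that the separate effects add up. For EPHA2 the effects added up within the error: the departure was 0.07 (SE 0.18, 95% interval -0.31 to 0.44, adjusted p = 0.93). For EPHA4 it was 1.25 (SE 0.21, 95% interval 0.80 to 1.69, adjusted p = 0.00631). Of all genes 1.04% were called in this comparison, 0.562% with a positive and 0.473% with a negative departure, and 16 genes had a larger one than EPHA4. Quantile normalization gave an EPHA4 departure of 1.19 (adjusted p = 0.00824), median centring one of 1.27 (adjusted p = 0.00382), and leaving out each array in turn 1.09 to 1.37.

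The difference between the 2 genes was tested on the log2 difference EPHA2 minus EPHA4 of each array. It averaged 0.62 ± 0.14 in DTE, 0.77 ± 0.24 in DT, 1.91 ± 0.25 in E and 0.88 ± 0.06 in DMSO (SD, n = 3 each), and the E arrays (1.63 to 2.11) lay above all others. Its absolute size carries the 2 probe sets' own brightness, so only its changes are read. Arrays with dabrafenib and trametinib differed from those without by -0.70 (two-sided exact permutation p = 0.03 within arrays alike in entinostat, 0.06 adjusted over 2 tests, with 0.005 the smallest that 400 arrangements allow). Arrays with entinostat differed from those without by 0.44 (exact permutation p = 0.08, adjusted 0.08). Neither average passed the threshold after adjustment, and each averages a large difference with a small one. In a limma fit with this difference as an added row, chosen after the values were seen, it was 1.03 for E minus DMSO (SE 0.15, adjusted p = 7.01e-05) and -1.29 for DTE minus E (adjusted p = 5.48e-06). It was -0.11 for DT minus DMSO (95% interval -0.42 to 0.20, adjusted p = 0.64) and -0.15 for DTE minus DT (-0.46 to 0.15, adjusted p = 0.547). The difference between the departures of the 2 genes was -1.18 (SE 0.21, adjusted p = 0.00763). With 3 arrays against 3, in tests also added after the values were seen, exact permutation p-values were 0.1 for E minus DMSO and for DTE minus E, which is the smallest possible, 0.6 for DT minus DMSO and 0.5 for DTE minus DT.

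**Figure D3:**
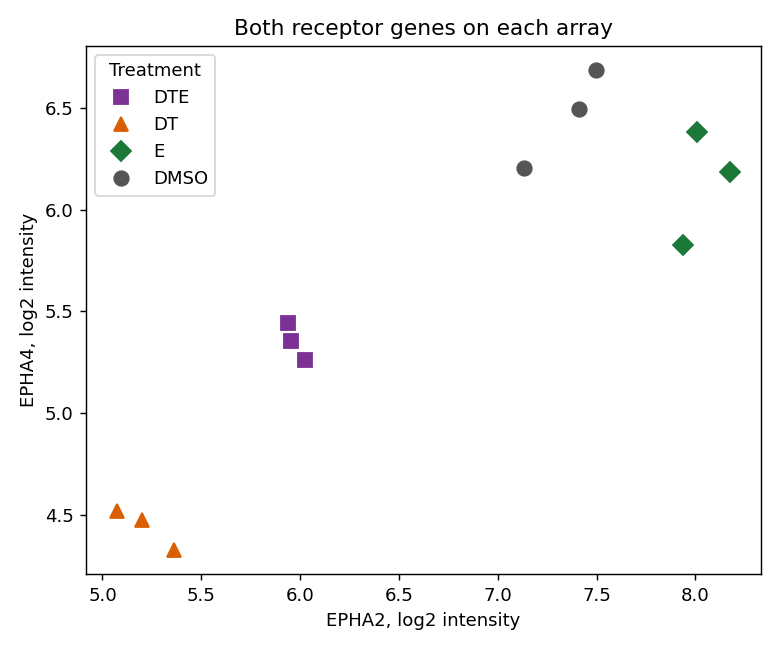
Log2 intensity of EPHA4 (vertical) against EPHA2 (horizontal) on each of the 12 arrays, by treatment; neither axis starts at 0. The E arrays lie to the right of the DMSO arrays without lying above them, and the DTE arrays lie to the right of and above the DT arrays.

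Among the other Eph receptors, 11 of the 12 listed were measured. In DT minus DMSO, 1 rose, 1 fell and 9 did not pass the test (median log2 change -0.08, beside -0.165 over all genes). Of all genes 3.23% were called higher and 24.1% lower. EPHA5, a receptor best known from neurons, was the one that rose, from a dim level at percentile 31.6 of genes in DMSO. It had 4.58, 4.71 and 4.70 in DT and 3.44, 3.44 and 3.27 in DMSO on the log2 scale, a 2.43-fold rise (1.28, SE 0.13, adjusted p = 1.17e-06) in the direction opposite to EPHA2 and EPHA4. It was also higher in DTE (1.02, adjusted p = 1.33e-05). In E it stood at 0.48 (adjusted p = 0.0176), and this call was lost after quantile normalization or median centring (0.28 for both). It was also lost when DMSO replicate 3 (0.42), or the first (0.45) or the third (0.38) E array, was left out. The antisense transcript EPHA5-AS1 had its own probe set, with changes of 0.42 in DT and 0.51 in DTE (adjusted p = 0.0373 and 0.0117).

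EPHA3, a receptor of ephrin-A ligands, fell in DT (log2 change -0.59, SE 0.14, adjusted p = 0.00428), with 6.80, 6.9985 and 6.82 in DT and 7.35, 7.79 and 7.25 in DMSO, a call lost after quantile normalization (-0.23, adjusted p = 0.133). EPHB4, a receptor of ephrin-B2, fell in DTE against E (-0.50, adjusted p = 0.014). That call was lost after quantile normalization (-0.20), after median centring (-0.28) and without DTE replicate 3 (-0.42). EPHA5 was the 1 listed receptor that was higher there (0.54, adjusted p = 0.00717), where 2.08% of all genes were called higher and 22.4% lower. In DTE minus DMSO, 1 of the 11 was higher and 0 were lower (2 and 0 at an unadjusted limma p under 0.05). In DTE minus DT, limma called 0 of them (2 higher and 0 lower at an unadjusted p under 0.05), and in the departure also 0 (0 higher and 1 lower unadjusted). The shares of all genes called were 9.64% higher and 22.5% lower in DTE minus DMSO. They were 13.8% and 5.09% in DTE minus DT, and 1.04% in either direction in the departure. EPHA5 stood at -0.26 in DTE minus DT (adjusted p = 0.197) and passed as lower after quantile normalization (-0.44, adjusted p = 0.013) and after median centring (-0.44, adjusted p = 0.0186). Its departure of -0.74 (adjusted p = 0.0668) passed after quantile normalization (-0.71, adjusted p = 0.0389) and without E replicate 2 (-0.87, adjusted p = 0.0232). EPHA6, EPHA7, EPHA8, EPHA10 and EPHB1 had group means between 2.27 and 2.89, below the lower quartile of genes in every group, so they were not shown to lie above background. EPHA1, EPHB3 and EPHB6 had group means of 3.97 to 4.23, 5.06 to 5.37 and 3.50 to 3.67, and their changes did not pass the test in any comparison.

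**Figure D4:**
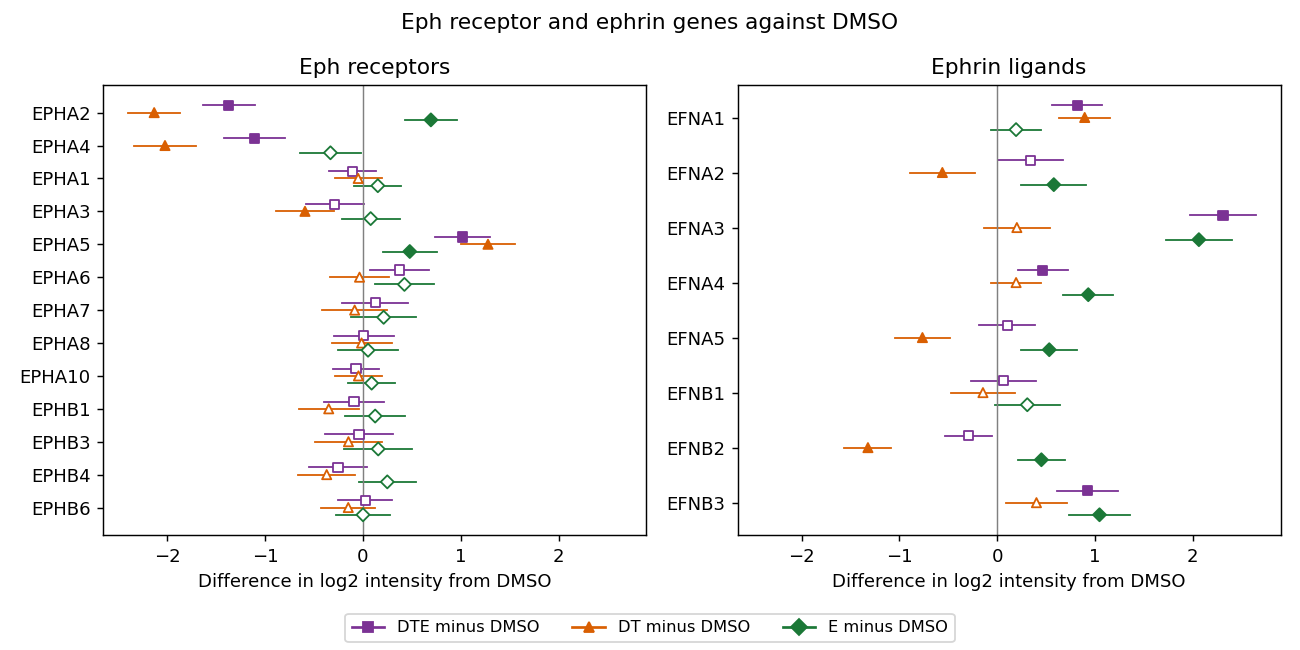
Difference in log2 intensity from DMSO for the 13 measured Eph receptor genes (left) and the 8 ephrin genes (right) in DTE (squares), DT (triangles) and E (diamonds), with 95% intervals from the limma fit; filled symbols have an adjusted p under 0.05. EPHA2 and EPHA4 hold the lowest receptor values in DT and DTE, and EFNA3 the highest ligand values in E and DTE.

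All 8 ephrin ligands were measured. In E minus DMSO 6 rose and 0 fell (6 and 0 at an unadjusted limma p under 0.05), where 12.5% of all genes were called higher, with a median log2 change of 0.56, or 0.44 with 5 rising after quantile normalization and 0.36 with 3 rising after median centring. EFNA3 rose most among them. Its values were 6.58, 6.42 and 6.42 in DTE, 4.11, 4.58 and 4.40 in DT, 6.33, 5.84 and 6.51 in E, and 4.27, 4.18 and 4.04 in DMSO. Every entinostat array thus exceeded every array without it, with the kinase inhibitors and without them. Over all genes, 22.3% had all E arrays above all DMSO arrays, and 21.1% had all DTE arrays above all DT arrays. The share with every entinostat array above every other array was not counted. EFNA3 rose 4.18-fold in E (2.06, SE 0.16, adjusted p = 7.12e-08), 4.96-fold in DTE against DMSO and 4.31-fold in DTE against DT (adjusted p = 5.08e-08). The ephrin-B3 gene EFNB3 rose by 1.05 in E (adjusted p = 6.59e-05) and EFNA4 by 0.93 (adjusted p = 2.86e-05).

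The other 3 calls in E were smaller and depended on the scale or on single arrays. EFNA2 stood at 0.58 (adjusted p = 0.0161), a call lost after quantile normalization (0.39), after median centring (0.38) and without DMSO replicate 1 (0.54), DMSO replicate 3 (0.52), E replicate 1 (0.54) or E replicate 3 (0.56). EFNA5 stood at 0.53 (adjusted p = 0.0103), lost after median centring (0.33) and without DMSO replicate 1 (0.41) or E replicate 2 (0.45). EFNB2, the ephrin-B2 gene known from arteries and melanoma, stood at 0.45 (adjusted p = 0.0101), lost after median centring (0.25).

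Under dabrafenib and trametinib the called ligands went in both directions. In DT minus DMSO 1 rose and 3 fell (3 and 2 after quantile normalization, and after median centring). Over all genes 3.23% were called higher in this comparison and 24.1% lower, so the count of falls is not particular to the ligands. EFNB2 fell 2.50-fold, with 6.92, 7.14 and 7.12 in DT and 8.36, 8.46 and 8.33 in DMSO (log2 change -1.32, SE 0.11, adjusted p = 1.21e-07). EFNA5 fell by 0.76 on the log2 scale (adjusted p = 0.000398). EFNA2 stood at -0.56 (adjusted p = 0.0126), lost after quantile normalization and median centring (-0.36 for both) and without DMSO replicate 2 (-0.46) or DT replicate 3 (-0.37). EFNA1, a main ligand of EPHA2, moved the other way from its receptor. It had 4.999, 5.10 and 5.32 in DT and 4.13, 4.37 and 4.23 in DMSO, a 1.86-fold rise (0.89, SE 0.12, adjusted p = 3.17e-05), and stood as high in DTE (5.12, 5.10 and 4.97; 0.82 against DMSO, adjusted p = 5.68e-05).

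In DTE minus DT, 5 of the 8 ligands were higher and 0 lower (6 and 0 at an unadjusted limma p under 0.05). Over all genes 13.8% were called higher in this comparison and 5.09% lower. EFNB2 was 2.04-fold higher in DTE (1.03, adjusted p = 3.48e-06), with 8.14, 8.12 and 8.02 in DTE against 6.92, 7.14 and 7.12 in DT, and its DTE minus DMSO change of -0.29 did not pass the test (adjusted p = 0.0622, or 0.0327 with an intensity trend in eBayes). EFNA2 was higher by 0.90 and EFNA5 by 0.87 (adjusted p = 0.000401 and 0.000139). EFNB3 was higher by 0.52 (adjusted p = 0.0185), a call lost after quantile normalization (0.40), after median centring (0.34) and without DT replicate 1 (0.52), DT replicate 3 (0.51), DTE replicate 2 (0.48) or DTE replicate 3 (0.50). In DTE minus DMSO 4 ligands were higher (EFNA1, EFNA3, EFNA4 and EFNB3) and 0 lower (5 and 1 unadjusted), where 9.64% of all genes were called higher and 22.5% lower. In DTE minus E, 1 was higher (EFNA1) and 3 were lower (EFNA4, EFNA5 and EFNB2). Over all genes 2.08% were called higher in that comparison and 22.4% lower. Of the 3 lower ligands, EFNB2 remained called after quantile normalization (-0.46, limma adjusted p = 0.0109). EFNA4 (-0.46) and EFNA5 (-0.43) lost their calls after quantile normalization and after median centring. EFNA5 lost its call also without E replicate 1 (-0.42) or 2 (-0.34), and without DTE replicate 1 (-0.40) or 3 (-0.40). EFNB1 did not pass the test in any comparison. No ligand was called in the departure from additivity (0 by limma, and 1 higher and 2 lower at an unadjusted p under 0.05), although EFNB2 passed after median centring (0.60, adjusted p = 0.0462) and with an intensity trend (0.58, adjusted p = 0.0437). The share of all genes called in the departure was 1.04%.

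Of 42 listed proteins that carry or modify Eph signals inside the cell, 28 had a measured gene. In DT minus DMSO 1 rose and 10 fell (median -0.24), where 3.23% of all genes were called higher and 24.1% lower. After quantile normalization 4 rose and 3 fell, and after median centring 3 and 6. DOCK4, an activator of RAC1 that acts downstream of EPHA2, fell 3.89-fold (-1.96, SE 0.12, adjusted p = 1.32e-09). Its values were 7.16, 7.18 and 7.21 in DTE, 5.86, 6.12 and 5.89 in DT, 8.18, 8.15 and 8.16 in E, and 7.89, 8.11 and 7.75 in DMSO. DOCK4 was 2.33-fold higher in DTE than in DT (1.22, adjusted p = 9.26e-07), stood at 0.25 in E (adjusted p = 0.195) and had a departure from additivity of 0.97 (SE 0.17, adjusted p = 0.00766), the 1 gene of the 28 called there. The share of all genes called in the departure was 1.04%. LYN, a kinase of the SRC family, fell by 1.03 in DT, as did PTK2, the focal adhesion kinase gene (adjusted p = 4.82e-06 and 1.81e-05).

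In E minus DMSO 6 of the 28 rose and 0 fell (8 and 0 at an unadjusted limma p under 0.05), where 12.5% of all genes were called higher. After quantile normalization 7 rose and 1 fell, and after median centring 4 and 3. The largest rises were in VAV3, a signalling protein that binds Eph receptors (1.14, adjusted p = 4.88e-06), CLDN4, a tight junction protein (1.07, adjusted p = 0.00201), and CHN1, the RAC1-inactivating chimaerin that acts after EPHA4 (0.72, adjusted p = 0.00201). In DTE minus DMSO 3 rose and 10 fell, or 6 and 5 after quantile normalization and 3 and 11 after median centring. Over all genes 9.64% were called higher there and 22.5% lower. CHN1 rose 2.33-fold (1.22, adjusted p = 5.45e-06), with LYN at -0.77 and DOCK4 at -0.74. In DTE minus DT 8 were higher and 2 lower, or 7 and 4 after quantile normalization and 4 and 5 after median centring. The balance thus turned with the scale, and 13.8% of all genes were called higher in that comparison. VAV3 was higher by 0.78 (adjusted p = 0.000202), and INPPL1, a lipid phosphatase that binds EPHA2, was lower, at -0.66 (adjusted p = 0.000517), where 5.09% of all genes were called lower. In DTE minus E 1 was higher and 13 lower (3 and 6 after quantile normalization, 4 and 6 after median centring). Over all genes 2.08% were called higher there and 22.4% lower. The largest falls among the 28 were those of CLDN4 at -1.12, PTK2 at -1.002 and DOCK4 at -0.99.

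The genes whose profile over the 12 arrays was most like that of each receptor were found among 1491 other genes whose group means spanned at least 1 log2 unit. Pearson's r is a description here, since the arrays fall into 4 groups and r follows mostly the group means. For EPHA2 they were UBASH3B (r = 0.995), UXS1 (0.994), ANPEP (0.991), GDF15 (0.991) and SH3KBP1 (0.991). UBASH3B, a phosphatase that acts on tyrosine kinases, had changes of -2.25 in DT, 0.92 in E and -1.37 in DTE against DMSO, close to the -2.13, 0.69 and -1.37 of EPHA2. SH3KBP1 encodes an adaptor of receptor endocytosis, ANPEP an aminopeptidase of the cell surface, UXS1 an enzyme that makes UDP-xylose, and GDF15 a secreted stress factor. The departures of these 5 genes ran from -0.44 to 0.14 and none was called (0 by limma). Because the genes were picked for likeness to EPHA2 on the same arrays, this largely follows from the choice and is not a separate result. The most opposite profiles were those of SNAI2, a neural crest transcription factor (r = -0.969), FAXDC2 (-0.962) and KLHL24 (-0.959).

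For EPHA4 the closest profiles were those of EPHX4 (r = 0.976), KYNU (0.966), SIPA1L1 (0.966), SMAGP (0.965) and LONRF3 (0.964). KYNU encodes an enzyme of tryptophan breakdown, SIPA1L1 a RAP GTPase-activating protein and SMAGP a small transmembrane glycoprotein. SMAGP had -2.74 in DT, -0.47 in E and -1.67 in DTE against DMSO, with a departure of 1.55 (adjusted p = 0.000614). EPHX4 and LONRF3 also had a called departure, of 0.94 and 0.89 (limma adjusted p = 0.0108 and 0.0098). KYNU and SIPA1L1 did not (adjusted p = 0.0708 and 0.232). Positive departures here likewise largely follow from picking genes by likeness to EPHA4 on the same arrays. The most opposite were MTSS2 (-0.97), PMEL, the melanosome matrix protein (-0.967), and TP53INP2 (-0.965). The lists of 5 for the 2 receptors had no gene in common.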

How the data were processed

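RNA of 12 samples of A2058 cells, in 4 treatment groups of 3 taken from the sample titles, was measured on Affymetrix arrays. Each array has a column of linear intensity values that the authors deposited, 1 for each probe set. RMA and the Transcriptome Analysis Console are named, without versions, in the submitters' processing notes. The array medians of the deposited intensity values differ, and any rescaling after RMA is unknown, as is the arrays' genome build. Arrays hold no read counts, so their number limits the precision. No pair of arrays shared an identical probe set value (0 of 29396 in each of 66 pairs).

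Of 29396 probe sets, 14748 had 1 gene symbol, 0 several and 14648 none. Symbols were updated by gene identifier (14748 matched), and the probe set with the highest mean was kept for each of 14580 genes. Intensities were converted to log2 and fitted with limma 3.58.1 in R 4.3.3 (lmFit, contrasts, eBayes, group means over all 12 arrays, 8 residual degrees of freedom). P-values were adjusted by Benjamini-Hochberg over all genes and called under 0.05. Intervals are 95% intervals of the moderated fit. The fit was tested on simulated data.

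EPHA2, EPHA4, the gene lists, the tests and the alternatives were chosen with earlier results of these data known. All measured Eph receptor and ephrin genes are named, of the effector list up to 3 called genes per comparison with the largest change, and of the profile neighbours the 5 highest and 3 lowest by r. ADAM10 and the other listed effectors are given by count. Listed genes without a probe set here were not analysed here. The replicate numbers did not meet the rule for pairing (every same-numbered pair correlating over 0.1), so the fit has no replicate block. Alternatives were quantile normalization, median centring, a filter on dim genes, the mean of probe sets, unnamed probe sets, 2 other eBayes settings, only the groups compared, a replicate block and each array left out. Promoter windows are RefSeq's (GRCh38.p14), cut to the bases before the start.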

Additional observations from a re-analysis of the deposited data

Results flagged for a closer look

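The 3 results flagged here had an entinostat effect that differed with and without dabrafenib and trametinib, by limma's test of the difference itself. They are not the only ones: 151 of the 14580 genes (1.04%) were called by that test, among them SMAGP, EPHX4 and LONRF3. The EPHA4 effect was larger with dabrafenib and trametinib by 1.25 on the log2 scale (adjusted p = 0.00631): it was 0.91 with them and -0.33 without. DOCK4 was larger by 0.97 (adjusted p = 0.00766), at 1.22 with them and 0.25 without. The log2 difference EPHA2 minus EPHA4 changed by -1.18 between the same conditions (adjusted p = 0.00763), at -0.15 with them and 1.03 without. That difference was refitted 15 times (quantile normalization, median centring, the replicate block and each array left out). The value ran from -1.32 to -1.05 and the limma adjusted p from 0.00427 to 0.0273. Since it is the EPHA2 departure less the EPHA4 departure, it is not separate from the EPHA4 result.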

How the results depend on the processing

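EPHA2 and EPHA4 were refitted 250 times over the 6 comparisons, under 9 other settings and 12 fits without 1 array each. Of these, 249 kept the side of the threshold, and no called change reversed its direction. The exception was EPHA4 in E minus DMSO, which passed after median centring (-0.53, limma adjusted p = 0.0135). The sign of the EPHA2 departure, which was never called, was not stable: it ran from -0.0089 to 0.17 without 1 array each. The average EPHA2 minus EPHA4 effect of dabrafenib and trametinib ran from -0.77 to -0.65 without 1 array each, and passed without DT replicate 2 (-0.77, adjusted exact permutation p = 0.01). Counts over all genes depended on the scale. After quantile normalization the genes called higher and lower were 1247 and 1146 in DT minus DMSO, 1232 lower in E minus DMSO, 2064 lower in DTE minus DMSO, 1752 lower in DTE minus DT, 1019 and 851 in DTE minus E, and 174 and 140 in the departure. After median centring they were 1178 and 1743 in DT minus DMSO, 1098 and 2372 in E minus DMSO, 2245 lower in DTE minus DT, 978 and 1007 in DTE minus E, and 160 and 107 in the departure. As deposited they were 471 and 3514 in DT minus DMSO, 1825 and 516 in E minus DMSO, 1405 and 3285 in DTE minus DMSO, 2014 and 742 in DTE minus DT, 303 and 3271 in DTE minus E, and 82 and 69 in the departure. With unnamed probe sets included, 741, 2802, 2240, 3122 and 484 were called higher in those 5 comparisons in that order, and 124 higher and 119 lower in the departure. That setting adds 14648 probe sets to the 14580 genes tested. Its counts therefore come from a larger set and do not show a larger share. An intensity trend in eBayes gave 129 higher in the departure. Without 1 array each, the number lower was 2267 to 3923 in DT minus DMSO, 303 to 580 in E minus DMSO, 473 to 777 in DTE minus DT, 2132 to 3372 in DTE minus E, and the departure had 46 to 108 higher and 36 to 69 lower. The lowest of these came without DT replicate 1 (2267), DMSO replicate 2 (303), DT replicate 2 (473), DTE replicate 1 (2132), DT replicate 1 (46) and DMSO replicate 3 (36); without DMSO replicate 2 DT minus DMSO had 2278. The cause was not tested. The fit on only the groups compared was not run for the departure, which uses all groups. The closest 5 profiles shared 4 genes with those named for EPHA2 under either scaling, and 4 or 5 for EPHA4.

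The replicate numbers did not meet the rule for pairing: the deviations of same-numbered arrays correlated at -0.0966 to 0.172 over 18 pairs, 16 of them above 0 and 3 over 0.1. As a hint from the data, not the design, 9 of 12 arrays correlated best with their own number. With the replicate block, EPHA2 and EPHA4 kept every call (EPHA4 departure 1.25, adjusted p = 0.00614; EPHA4 in E minus DMSO adjusted p = 0.138), and 492 genes were called higher and 3736 lower in DT minus DMSO. Calls gained under the block were EPHB4 in DT minus DMSO (-0.37, adjusted p = 0.0342), PTK2 in E minus DMSO (0.39, adjusted p = 0.0309), CLDN4 in DTE minus DT (0.60, adjusted p = 0.0492), and EPHA6 in E minus DMSO (0.42), DTE minus DMSO (0.37) and DTE minus DT (0.41). Values are RNA levels of 1 cell line at 1 time, detection above background was not assessed, and the number of arrays limits what small changes can be called.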
